A study of Mus musculus with 23 samples.

Results

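The genes of the mitochondrial respiratory chain and of ATP synthase were followed through 3 regions of the mouse brain and 2 diets, as 95 rows of a log2 expression table of 31395 rows. A row was taken when its transcript identifier carried, in the scanner files, a gene name that starts with Nduf, Uqcr or Atp5, or with Cox followed by 4, 5, 6, 7 or 8, or that is Sdha, Sdhb, Sdhc or Sdhd. On the array, 96 identifiers with 90 gene names met this rule, and the 95 rows stand for 89 of these genes. The gene left without a row was Cox8c, the testis isoform of complex IV subunit 8, whose log2 intensity lay between 2.31 and 3.99 and exceeded the limit set by the negative control spots on 0 of the 23 arrays.

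The respiratory chain takes electrons from NADH at complex I and from succinate at complex II, passes them through complex III and cytochrome c to complex IV, where oxygen is reduced, and uses the proton gradient built on the way to make ATP at complex V. Neurons draw much of the ATP for ion pumping and synaptic transmission from this pathway. Most subunits are encoded in the nucleus and a smaller set in the mitochondrial genome, and several complex IV subunits have alternative isoforms best known from muscle, lung or testis.

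Complex I was covered by 38 rows of 36 genes, of which 7 encode core subunits that carry the redox centres. Complex II had 4 rows, complex III 9 rows of 8 genes, and complex IV 20 rows of 19 genes, 8 of them for alternative isoforms or relatives of a subunit. Complex V had 17 rows of 15 genes, 5 of them for the catalytic F1 part. The other 7 rows carry the name stems but encode no subunit: the complex I assembly factors Ndufaf1, Ndufaf2, Ndufaf3 and Ndufaf4, the genes Atp5s and Atp5sl, and Cox4nb, which lies beside Cox4i1 and belongs to an insertion complex of the endoplasmic reticulum. The RefSeq gene table matched 89 of the 95 identifiers by accession and 6 by symbol, and it gives newer names to 4 genes (Atp5pb for Atp5f1, Dmac2l for Atp5s, Dmac2 for Atp5sl and Emc8 for Cox4nb). All member spots were well above background on every array, and 0 were saturated.

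The mice were C57BL/6 females, with an age of 5 weeks in the labels. Lean mice ate standard chow (SC) for 8 weeks, and obese mice chose freely between chow and a chocolate mixture (CM) over the same period. According to the paper, SC mice also received CM during the limited-access test of the battery that followed. After an 11-day test battery, frontal cortex (FC), striatum (ST) and a piece named HT here were dissected, and total RNA of each piece went to 1 array of a single colour. Each diet and region had 4 arrays from 4 mice (L52 to L58 for SC, O52 to O58 for CM), except FC of CM mice with 3, since no FC array of mouse O52 was analysed here. The arrays lay on 3 slides, and their placing was uneven. Slide 1 held 3 SC arrays of FC with 1 SC and all 4 CM arrays of ST. Slide 2 held 1 SC array of FC, 2 of ST and 1 of HT with all 4 CM arrays of HT, and slide 3 held 1 SC array of ST and 3 of HT with all 3 CM arrays of FC. No slide held FC arrays of both diets.

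The labels call the HT tissue a thalamic region, while the series text calls it hypothalamus, and markers of both were high in it. Against FC of SC mice, 10 of 13 hypothalamus marker rows rose in HT and 1 fell, led by the peptide gene Pmch (log2 difference 8.15, SE 1.32, limma adjusted p = 6.7e-05), while all 12 thalamus marker rows rose, led by Gbx2 (limma adjusted p = 1.75e-08), which was well above background on 1 of the 4 FC arrays. Summed intensities of the thalamus markers were 57400, 64000, 54200 and 27000 in HT of mice L52, L54, L56 and L58 and 75500, 51300, 52300 and 71000 in CM mice, against at most 5800 in FC of SC mice. The summed hypothalamus markers were less even, at 178000, 33200, 237000 and 328000 in SC mice and 185000, 195000, 226000 and 51600 in CM mice. The brightest rows on the HT arrays were Tnnt1 for thalamus and Hcrt for hypothalamus, and the hypothalamus marker that was lower in HT than in FC was Npy (-2.92, SE 0.28, limma adjusted p = 2.16e-07). HT is therefore used below as the name of a dissected piece that held both tissues. The ST array of mouse L52 also carried hypothalamus markers, with a sum of 108000 against at most 20800 on the other ST arrays of SC mice. Thalamus markers summed to 14400 and 12200 on the ST arrays of L52 and L56, against 4030 and 4100 on those of L54 and L58. The ST array of L54 had the highest frontal cortex sum of the ST arrays (14200, against at most 10300 on the others) and the lowest striatal sum (297000, against at least 423000). In ST minus FC 1 row of each list rose, Nkx2-1 (adjusted p = 0.0115) and Gbx2 (adjusted p = 0.0251), which were well above background on 2 and 1 of the 4 FC arrays. Striatal markers rose in ST over FC in 10 of 10 rows (largest Adora2a, 3.17, adjusted p = 0.048), and of 10 rows of frontal cortex markers, brightest for Slc17a7 on the FC arrays, 7 fell in HT (largest Neurod6, adjusted p = 5.43e-05, well above background on 3 of the 4 HT arrays) and 5 in ST (largest Slc17a7, -2.07) against FC. In HT minus ST 9 striatal rows fell (largest Ppp1r1b, -4.50) and all 12 thalamus rows rose (largest Tcf7l2, 3.59, adjusted p = 6.45e-05). On the FC arrays the striatal markers, brightest for Penk, summed to 24800, 89800, 105000 and 101000 in SC mice and to 23200, 28300 and 103000 in CM mice, and Drd2 fell in FC of CM mice (-1.58, adjusted p = 0.0258).

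For each array, the deviation of every member from its own mean over the 23 arrays was taken, and the median over the 95 rows gave 1 value per array. These medians were -0.11, -0.09, -0.11 and -0.06 log2 in FC of SC mice L52, L54, L56 and L58, and -0.19, -0.13 and -0.15 in FC of CM mice. In ST they were 0.02, -0.01, -0.03 and -0.10 for SC mice and -0.01, -0.01, -0.03 and 0.06 for CM mice. HT gave 0.23, 0.09, 0.05 and 0.01 for SC mice and 0.16, 0.08, 0.09 and 0.16 for CM mice. All 8 HT arrays thus lay above all 7 FC arrays, and ST overlapped both, with its array of L58 (-0.10) below 2 FC arrays of SC mice. In SC mice (n = 4 per region) these array medians had a mean ± SD of -0.09 ± 0.02 for FC, -0.03 ± 0.05 for ST and 0.10 ± 0.10 for HT. In CM mice they had one of -0.16 ± 0.03 for FC (n = 3), 0.00 ± 0.04 for ST and 0.12 ± 0.04 for HT (n = 4 each). The 3 FC arrays of CM mice lay below the 4 of SC mice without overlap, and the SC array of HT on slide 2 (mouse L58) was the lowest of the HT arrays.

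**Figure D1:**
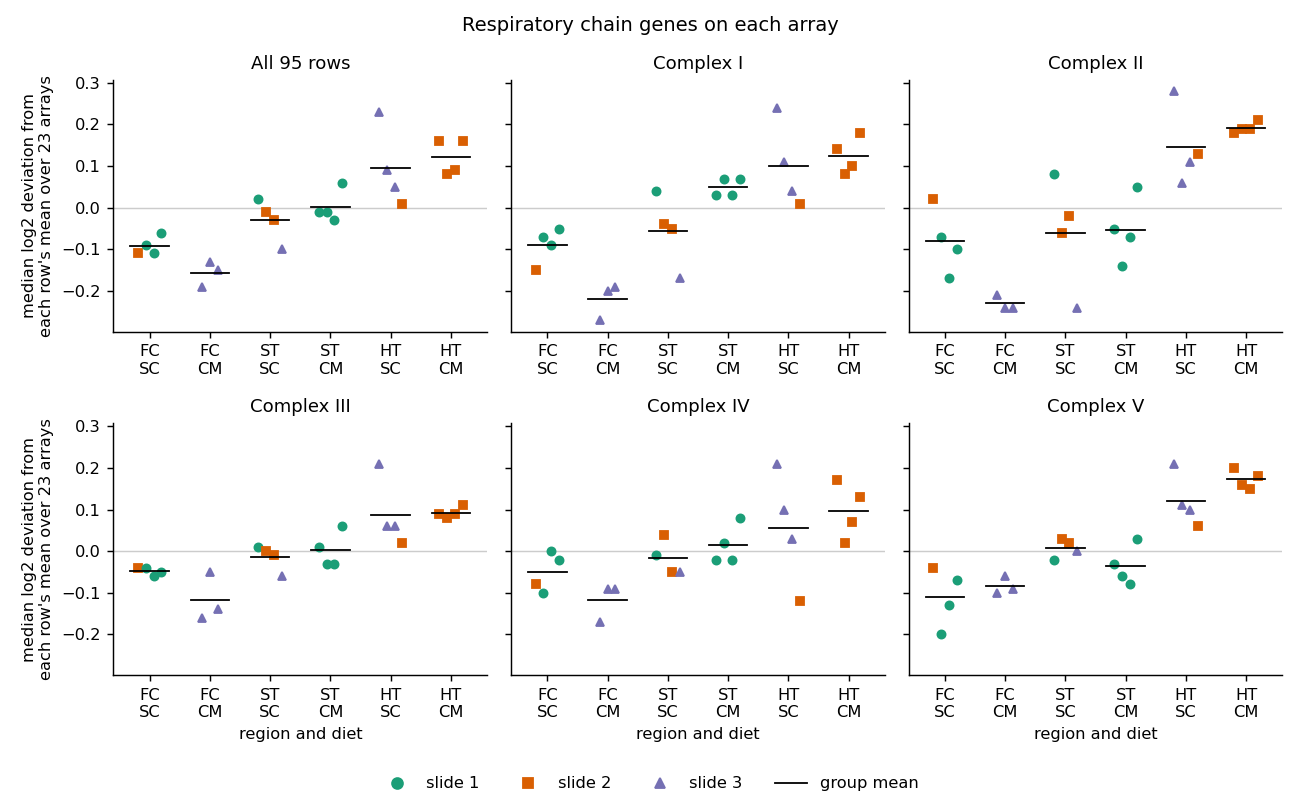
Median log2 deviation of the respiratory chain rows from each row's mean over the 23 arrays (y axis), for all 95 rows and for each complex, by region and diet (x axis). Each point is 1 array, its shape and colour give the slide, and lines are group means; over all 95 rows HT arrays reach from 0.01 to 0.23, while FC arrays stay at -0.06 or lower.

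The comparison of HT with FC on chow asks how the respiratory chain differs between the regions in SC mice, and here the members stood highest against the rest of the table. All tests below are limma's moderated test with Benjamini-Hochberg adjustment over the 31395 rows, and a row is said to rise or fall when its adjusted p was under 0.05. In HT 41 of the 95 members rose (43.2%) and 2 fell (2.11%), where 22.8% of all rows rose and 20.4% fell. The median difference of the members was 0.17 log2, against 0.02 over all rows, and 70 of the 95 differences were positive. Without any test, 38 members lay higher on every HT array than on any FC array of SC mice and 2 lay lower, against 15.9% higher and 16.4% lower of all rows. Rises came from every complex: 16 of 38 rows of complex I (median 0.16), 3 of 4 of complex II (0.23), 4 of 9 of complex III (0.15), 6 of 20 of complex IV (0.13), 9 of 17 of complex V (0.21) and 3 of 7 rows of the genes that encode no subunit. The 2 rows that fell were Cox8a of complex IV and Atp5e of complex V.

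Slide and scaling changed the size of this contrast. When slide was a fixed block the members' median was 0.21 log2 with 78 positive, but 8 members rose and 2 fell (8.42% and 2.11%) where 7.53% and 7.31% of all rows did. With slide as the random block 32 rose and 2 fell, and within slide 2, with 1 array of each region, the median was 0.14, with 69 positive and an all-row median of 0.01. On the scanner's processed signal scaled to each array's 75th percentile the median over all rows moved by 0.10 to 0.12 log2, the members' median was 0.11, and 28 members rose and 5 fell (29.5% against 28.8% of all rows rising), so on that scale the members did not stand above the table. That scaling also moved the share of rises among all calls from 52.8% to 62.4%.

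In complex I the clearest rise was that of Ndufa8 (NM_026703), an accessory subunit. Its log2 intensities were 12.92, 12.48, 12.58 and 12.66 in FC of mice L52, L54, L56 and L58 and 13.28, 13.19, 13.21 and 13.11 in HT of the same mice. All 4 HT values lay above all 4 FC values, and FC was highest on the array from slide 2. The difference was 0.58 (SE 0.09, 1.5-fold, limma adjusted p = 3.98e-05), with 0.36 (adjusted p = 0.107) with slide as a fixed block and 0.19 within slide 2. Ndufb6 (NM_001033305), another accessory subunit, was tighter, with 13.34, 13.29, 13.31 and 13.35 in FC and 13.76, 13.66, 13.68 and 13.63 in HT. Its HT values were higher on every array, by 0.36 (SE 0.07, 1.28-fold, limma adjusted p = 0.000646), and the rise held with slide as a fixed block (0.42, adjusted p = 0.037) and had the same sign within slide 2 (0.28). Ndufb5 was the other complex I row to rise with slide in the model (0.40, adjusted p = 0.0256, against 0.21 without it). Rows that rose included the core subunits Ndufv2 (0.48) and Ndufs8 (0.44), and the core subunit Ndufs1 did not pass (-0.05, adjusted p = 0.682).

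Complex II, which also belongs to the tricarboxylic acid cycle, rose in 3 of its 4 subunits. Sdha (NM_023281), the flavoprotein that oxidizes succinate, measured 14.07, 14, 13.87 and 13.90 in FC and 14.39, 14.19, 14.34 and 14.52 in HT of mice L52 to L58. No FC value reached any HT value, and the difference was 0.41 (SE 0.10, 1.33-fold, limma adjusted p = 0.00276). It was larger with slide as a fixed block (0.69, adjusted p = 0.0156) and 0.45 within slide 2. The iron-sulphur subunit Sdhb rose by 0.19 (adjusted p = 0.0283) and the membrane anchor Sdhc by 0.27 (adjusted p = 0.00716), while the anchor Sdhd differed by 0.20 (adjusted p = 0.125). Sdhb lost its call without the FC array of mouse L54 (adjusted p = 0.0679) or L56 (0.0999) or the HT array of L58 (0.0506), and was 0 (adjusted p = 0.999) on the processed signal and 0.06 (0.807) with slide as a fixed block. Sdhc lost it without the FC array of L56 (0.0615), on the processed signal (0.19, adjusted p = 0.0709) and with slide as a fixed block (0.35, adjusted p = 0.112).

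Complex III rose in 4 rows. The Rieske iron-sulphur protein Uqcrfs1 (0.42, adjusted p = 0.0011) and the small subunit Uqcrb (0.43, adjusted p = 0.000157) also rose with slide as a fixed block, by 0.60 (adjusted p = 0.0215) and 0.47 (adjusted p = 0.0245). The core protein Uqcrc2, read from 10 spots, rose by 0.20, and its partner Uqcrc1 differed by -0.01. Uqcrq, another small subunit, rose by 0.35, but its value was 0.06 (adjusted p = 0.858) with slide as a fixed block and -0.07 within slide 2, where the sign turned.

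In complex IV 3 of 8 rows of isoforms and relatives rose, none of them with slide as a fixed block, and 3 of 12 other rows. The muscle isoform Cox6a2 (NM_009943) measured 11.51, 10.81, 11.68 and 11.48 in FC of mice L52 to L58 and 12.50, 13.08, 12.21 and 11.69 in HT, so that HT was higher on every array but widely spread. Its difference was 0.97 (SE 0.26, 1.96-fold, limma adjusted p = 0.00576). The lowest HT value was that of L58, the lone SC array of HT on slide 2, where HT exceeded FC by 0.19. That array also had the lowest thalamus sum of the HT arrays (27000). On the CM arrays of HT, also on slide 2, Cox6a2 measured 13.01, 12.34, 12.34 and 12.81. The testis isoform Cox6b2 (NM_183405) measured 8.01, 8.12, 8.02 and 8.47 in FC and 9.08, 9.01, 9.01 and 8.92 in HT, again without overlap. It rose by 0.84 (SE 0.19, 1.79-fold, limma adjusted p = 0.00159), and by 0.91 within slide 2. Neither passed when slide was a fixed block (Cox6a2 0.62, adjusted p = 0.465; Cox6b2 0.42, adjusted p = 0.495). The common isoforms of the same subunits did not pass: Cox6a1 was at -0.20 (adjusted p = 0.0825) and Cox6b1 at 0.09 (adjusted p = 0.451).

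Subunit 8 went the other way. Cox8a (NM_007750), the common isoform and a small subunit of the membrane part, measured 17.17, 17.06, 17.12 and 17.21 in FC and 16.86, 16.81, 16.80 and 16.66 in HT. Every HT value was lower, and the difference was -0.35 (SE 0.08, 1.27-fold, limma adjusted p = 0.0011), with -0.51 (adjusted p = 0.0139) with slide as a fixed block and -0.51 within slide 2. Its muscle isoform Cox8b scattered too widely for a call (-0.45, SE 0.66). For subunit 4, the second isoform Cox4i2 rose by 0.37 (adjusted p = 0.0263) and the common isoform Cox4i1 was at -0.16 (adjusted p = 0.0764). Cox4i2 lost its call without the FC array of L54 (adjusted p = 0.0739) or L56 (0.103), and with slide as a fixed block its sign turned (-0.16). For subunit 7a, Cox7a1 was at 0.32 (adjusted p = 0.127), Cox7a2 at 0.04 (0.768) and the supercomplex factor Cox7a2l at 0.16 (0.0507). Ndufa4 (-0.03) and its relative Ndufa4l2 (-0.09) did not pass. Over the 8 isoform rows 3 rose and the median was 0.35, and over the other 12 rows 3 rose, 1 fell and the median was 0.06.

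Complex V was led by its gamma subunit Atp5c1 (NM_001112738), the rotor shaft of the F1 part, with 14.26, 13.84, 13.69 and 13.70 in FC of mice L52 to L58 and 14.58, 14.40, 14.33 and 14.33 in HT. The 2 regions did not overlap, although the FC array on slide 2 came close to the HT arrays. The difference was 0.60 (SE 0.11, 1.52-fold, limma adjusted p = 0.000142), with 0.39 (adjusted p = 0.11) with slide as a fixed block and 0.06 within slide 2. Subunit c of the membrane ring has 3 genes with the same mature protein. Atp5g3 rose by 0.47 (adjusted p = 0.000236) and by 0.55 (adjusted p = 0.0186) with slide as a fixed block, while Atp5g1 was at 0.21 (adjusted p = 0.0522) and Atp5g2 at 0.05 (0.606). The epsilon subunit Atp5e fell by 0.39 (adjusted p = 0.0101), with overlapping groups. The delta subunit Atp5d, at -0.16 (adjusted p = 0.153), fell with slide as a fixed block (-0.49, adjusted p = 0.0212). Of the genes that encode no subunit, Ndufaf2 (0.46), Atp5sl (0.40) and Cox4nb (0.38) rose, of which Ndufaf2 (0.50) and Atp5sl (0.40) also rose with slide as a fixed block. Cox4nb did not pass there, and over the alternative settings its difference ran from 0.01 to 0.4.

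**Figure D2:**
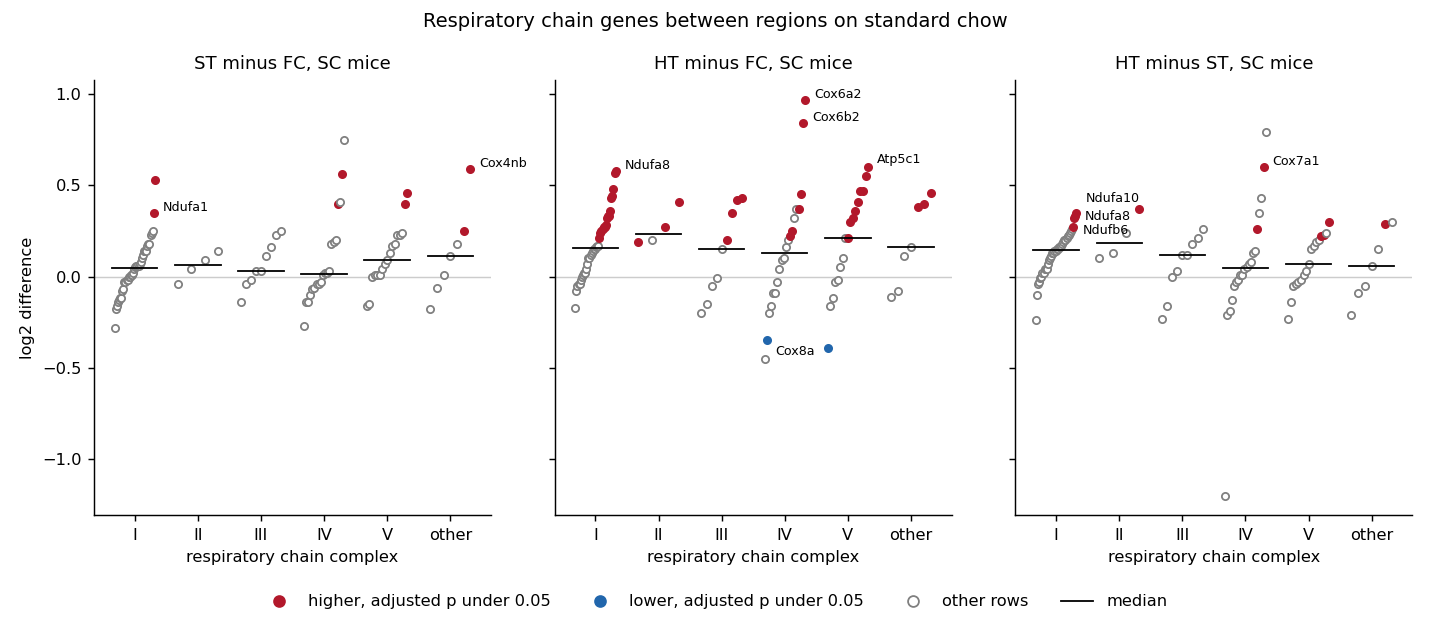
Log2 difference between regions on standard chow for each respiratory chain row (y axis), by complex (x axis), with limma's calls at an adjusted p under 0.05 filled and lines at the medians. In HT minus FC 41 rows rose and 2 fell, in HT minus ST 11 rose and in ST minus FC 8 rose; with quantile normalization within each region the median of HT minus ST turned from 0.12 to -0.01.

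HT and ST were compared on the same chow arrays, so that the HT arrays serve both comparisons. Here 11 members rose (11.6%) and 0 fell by limma's test, where 10.7% of all rows rose and 10.8% fell, and 36 had an unadjusted p under 0.05. The members' median was 0.12 log2 against 0.03 over all rows, with 71 positive differences. By overlap, 20 members lay higher and 3 lower on every HT array than on any ST array, against 10.1% and 11.6% of all rows. The rises were 4 in complex I, 1 in complex II (Sdha), 2 in complex IV, 3 in complex V and Ndufaf2, and 0 in complex III, where 4 rows had an unadjusted p under 0.05. The median turned to -0.01, with 2 rises and 6 falls, when quantile normalization was done within each region, which also moved the share of rises among all calls from 49.7% to 39.8%. On the processed signal scaled to the 75th percentile it was 0.05 against 0.06 over all rows, with 4 rises. When slide was a fixed block 7 members rose and 2 fell and the median was 0.11. Of these, Ndufb6 and Sdha had also risen in the main fit. The other rises (Uqcrc2, Atp5g3, Ndufc2, Atp5s and Uqcrfs1) and the falls (Cox4nb and Atp5d) had not passed there. The shares of all rows with slide as a fixed block are not given, so this count is not set against the table. Within slides 2 and 3 the medians were 0.03 and 0.21. Over all settings the count ran from 0 under the study's thresholds to 22 without array weights or with an offset of 50. Leaving out 1 array at a time gave 7 calls without the FC array of SC mouse L58 or the ST array of CM mouse O52 or O56, 17 without the FC array of L52 and 19 without the ST array of L54.

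The muscle isoform Cox7a1 (NM_009944) measured 10, 10.23, 9.84 and 9.84 in ST of mice L52, L54, L56 and L58 and 10.79, 10.57, 10.42 and 10.63 in HT. All HT values were higher, by 0.60 (SE 0.18, 1.51-fold, limma adjusted p = 0.0204), and by 0.60 and 0.76 within slides 2 and 3. The call was lost with slide as a fixed block (0.70, adjusted p = 0.0848), on the processed signal (0.54, adjusted p = 0.0516), and without the ST array of L52 (0.0637) or L56 (0.159). Of the accessory complex I subunits, Ndufa10 (NM_024197) measured 13.18, 12.85, 13.12 and 13.09 in ST and 13.58, 13.35, 13.45 and 13.21 in HT, where the lowest HT value was just above the highest ST value. It rose by 0.35 (SE 0.09, 1.28-fold, limma adjusted p = 0.00883), and was at 0.26 (adjusted p = 0.192) with slide as a fixed block and at 0.23 and 0.37 within slides 2 and 3.

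Ndufb6 measured 13.38, 13.38, 13.38 and 13.18 in ST, below each of its HT values given above, and rose by 0.32 (SE 0.08, limma adjusted p = 0.00532). It kept its call with slide as a fixed block (0.39, adjusted p = 0.0225), and was at 0.25 and 0.52 within slides 2 and 3. Ndufa8, with 12.60, 13.01, 12.90 and 12.70 in ST, rose by 0.33 (SE 0.10, limma adjusted p = 0.0152), a call lost with slide as a fixed block (0.35, adjusted p = 0.0572) and without the ST array of L52 (0.0513) or L56 (0.0638). Sdha measured 14.24, 13.74, 14.08 and 13.64 in ST, so that the ST array of L52 reached into the HT range, and rose by 0.37 (SE 0.11, limma adjusted p = 0.0169). Its difference was 0.58 (adjusted p = 0.0141) with slide as a fixed block and 0.61 and 0.66 within slides 2 and 3. Leaving out 1 array at a time gave from 0.28 (without the ST array of L54) to 0.56 (without that of L56). With quantile normalization within each region, Ndufa8 (adjusted p = 0.0829), Ndufa10 (0.0601) and Sdha (0.0714) did not pass.

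ST against FC on chow had the fewest member calls of the region comparisons in the main fit. It did not on the processed signal or with quantile normalization within each region. In ST 8 members rose (8.42%) and 0 fell by limma's test, where 7.71% of all rows rose and 7.22% fell, and 18 had an unadjusted p under 0.05. The share that rose was thus near that of the table, and the median was 0.04 log2 against -0.00 over all rows, with 63 positive. Within slides 1 and 2 the medians were 0.11 and 0.08, each with 72 of 95 positive and all-row medians of 0.00 and -0.01. When slide was a fixed block the median was 0.08 and 1 member rose, with slide as the random block 3 did, and with quantile normalization within each region 15 did, a scaling that moved the share of rises among all calls from 51.7% to 61.3% (62.6% on the processed signal). Leaving out the FC array of L56 or the ST array of L56 left 3 calls, and leaving out the FC array of L54 left 4.

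The rise of Cox4nb (NM_010926), the neighbour of Cox4i1, was the member that passed with slide in the model. It measured 9.41, 9.40, 9.31 and 9.50 in FC of mice L52 to L58 and 9.66, 9.93, 10.02 and 10.37 in ST. The regions did not overlap, and the difference was 0.59 (SE 0.11, 1.5-fold, limma adjusted p = 0.00242), 0.43 (adjusted p = 0.012) with slide as a fixed block, and 0.26 and 0.56 within slides 1 and 2. Ndufa1 (NM_019443), an accessory subunit encoded on the X chromosome, measured 14.86, 14.89, 14.86 and 14.84 in FC, a narrow band, and 15.04, 15.30, 15.23 and 15.16 in ST. Its difference of 0.35 (SE 0.11, 1.28-fold, limma adjusted p = 0.0343) was 0.27 (adjusted p = 0.155) with slide as a fixed block, 0.25 (0.181) on the processed signal, and 0.18 and 0.41 within slides 1 and 2. It lost its call without the FC array of L54 (0.0538), L56 (0.0635) or L58 (0.0534) or the ST array of L56 (0.0576). The other 6 rises, with groups that overlapped, were those of Cox4i2 (0.56), Ndufb2 (0.53), Atp5l (0.46), Atp5c1 (0.40), Cox7c (0.40) and Atp5sl (0.25). Atp5c1 lost its call without the FC array of L54 (0.0638), L56 (0.0758) or L58 (0.0518) or the ST array of L56 (0.079), and Cox7c without the FC array of L54 (0.0633) or L56 (0.0931) or the ST array of L56 (0.0672). Cox4i2 lost it without the FC array of L56 (0.0589) or the ST array of L56 (0.0706), and Atp5sl in 17 of 23 fits that left out 1 array, with an adjusted p of up to 0.198 (ST array of L56).

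**Figure D3:**
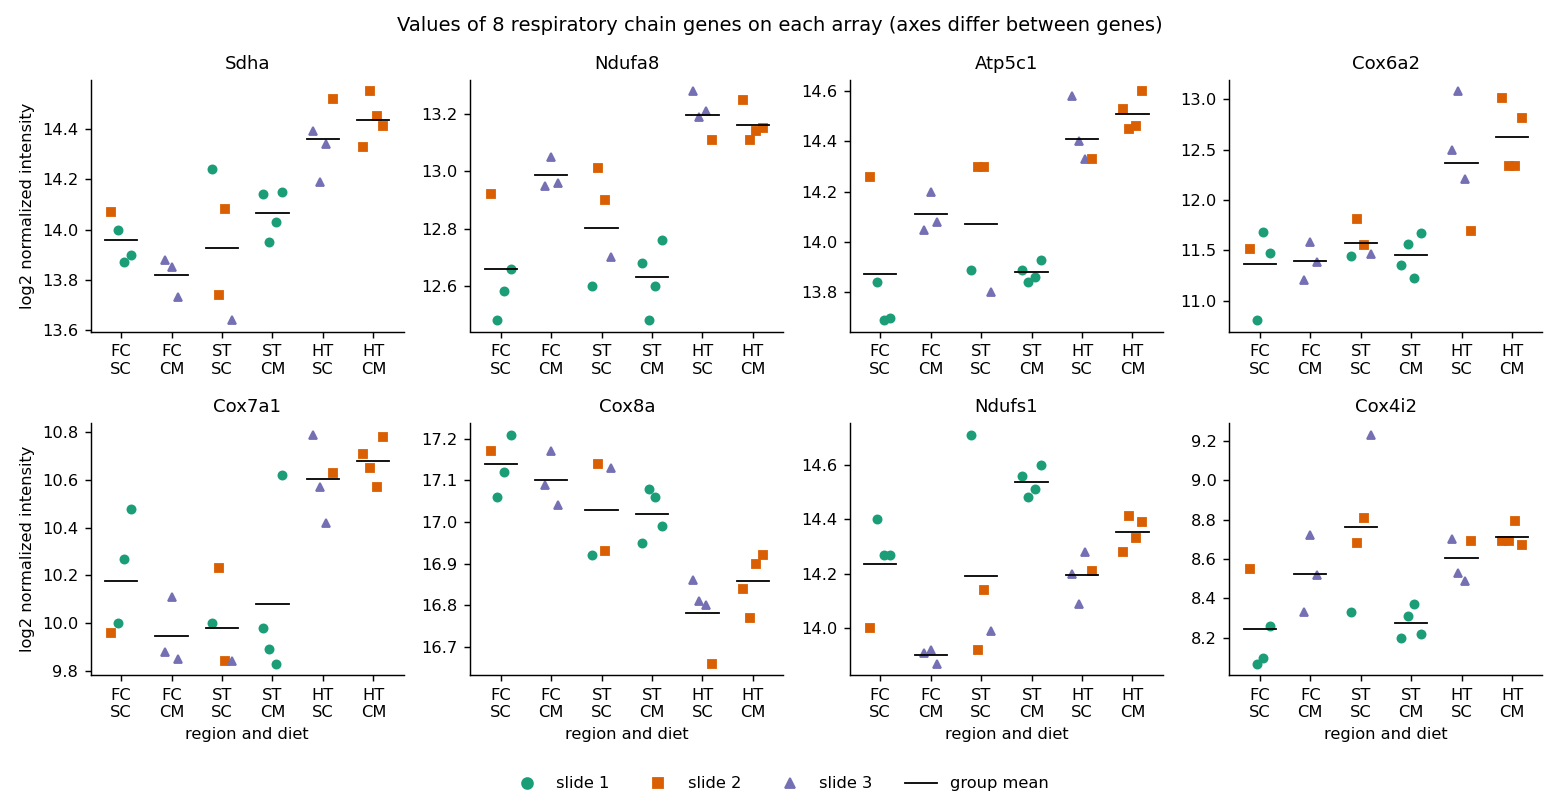
Log2 normalized intensity of 8 respiratory chain genes on each array (y axis, a different range for each gene), by region and diet (x axis), with slides marked by shape and colour and lines at group means. On chow, Sdha, Ndufa8, Atp5c1 and Cox6a2 are higher and Cox8a is lower in HT than in FC, and Cox7a1 is higher in HT than in ST; for Ndufs1 and Cox4i2 the arrays of a region follow the slide as well as the diet.

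In FC the comparison of CM with SC mice asks what the chocolate mixture did to cortex, and the slides bear on it, since the CM arrays of FC lay on slide 3 and the SC arrays on slides 1 and 2. In CM mice 9 members rose (9.47%) and 18 fell (18.9%), where 15.4% of all rows rose and 13.2% fell. The members' median was -0.07 log2 against -0.04 over all rows, with 65 of 95 negative. Leaving out 1 array at a time gave medians from -0.11 (without the FC array of SC mouse L56) to -0.07. Without overlap between the groups' arrays, 6 members were higher and 22 lower, against 13.2% and 12.1% of all rows. Falls were most frequent in complex I, with 12 falls and 2 rises among 38 rows (median -0.12), and core subunits such as Ndufs1, Ndufs3 and Ndufs7 were among the falls. Complex II had 0 of 4 rows called by limma (1, Sdhc, at an unadjusted p under 0.05), complex III 1 rise and 2 falls, complex IV 2 rises and 2 falls, and complex V 3 rises and 1 fall. The genes that encode no subunit had 1 rise (Ndufaf1) and 1 fall (Ndufaf3).

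With slide as a fixed block 0 members passed limma's test in FC, as did 0 of all rows, with 8 members and 2219 rows at an unadjusted p under 0.05, and the members' median was -0.05 against 0.01 over all rows. With slide as the random block 2 members fell and 0 rose. On the processed signal 5 members rose and 26 fell, the members' median was -0.17 against 0.04 over all rows, and the share of rises among all calls went from 53.7% to 68.5%. The share of all rows that fell on that scale is not given, so these member counts are not set against the table. Without array weights 3 members fell and 0 rose. Those weights were 0.31, 0.54, 0.97 and 0.72 on the FC arrays of SC mice L52 to L58. The lowest was that of the array on slide 2 (L52). On the FC arrays of CM mice O54, O56 and O58 they were 2.08, 2.74 and 1.78. Without the FC array of SC mouse L54 14 members passed, and without that of L52 32 did.

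Ndufs1 (NM_145518), the largest core subunit of complex I, which carries iron-sulphur clusters, measured 14, 14.40, 14.27 and 14.27 in FC of SC mice L52, L54, L56 and L58 and 13.91, 13.92 and 13.87 in CM mice O54, O56 and O58. The CM values were lower than every SC value, but the SC array on slide 2 (L52) lay close to them. The difference was -0.36 (SE 0.09, 1.28-fold, limma adjusted p = 0.00427), and with slide as a fixed block its sign turned (0.10, adjusted p = 0.961). Ndufa11 (NM_027244), an accessory subunit of the membrane arm, measured 13.13, 13.19, 13.16 and 13.32 in SC mice and 12.77, 12.91 and 12.86 in CM mice. All 3 CM values were lower, including against slide 2, and the fall of -0.35 (SE 0.08, 1.28-fold, limma adjusted p = 0.00213) also passed with slide as the random block (-0.36, adjusted p = 0.0356), though not as a fixed block (-0.43, adjusted p = 0.552).

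Ndufb11, an accessory subunit encoded on the X chromosome, fell in 1 of its 2 rows. The row NM_019435 measured 11.06, 11.38, 11.20 and 11.37 in SC mice and 10.85, 10.99 and 10.92 in CM mice, for a difference of -0.34 (SE 0.08, 1.27-fold, limma adjusted p = 0.00316) and of -0.23 (adjusted p = 0.862) with slide as a fixed block. Its other row, Y08702, was at -0.12 (adjusted p = 0.285). Cox7b2 (NM_030052), the second isoform of subunit 7b and a dim row, measured 5.95, 5.88, 6.04 and 5.52 in SC mice and 5.22, 5.05 and 5.45 in CM mice. The groups did not overlap but nearly met, with a difference of -0.64 (SE 0.20, 1.56-fold, limma adjusted p = 0.0229), and of -0.73 (adjusted p = 0.759) with slide as a fixed block. That call was lost on the processed signal (-0.47, adjusted p = 0.133) and without the FC array of L54 (0.0535), L56 (0.139), O54 (0.0567) or O56 (0.104).

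Among the rises in FC, Uqcrq (NM_025352), a small subunit of complex III, measured 15.13, 14.74, 14.74 and 14.85 in SC mice and 15.19, 15.24 and 15.17 in CM mice. Ndufa8 measured 12.92, 12.48, 12.58 and 12.66 in SC mice and 12.95, 13.05 and 12.96 in CM mice. In both genes the SC array on slide 2 (L52) was close to the CM arrays and the 3 SC arrays on slide 1 were well below. Uqcrq rose by 0.38 (SE 0.08, 1.31-fold, limma adjusted p = 0.00234) and was at 0.09 (adjusted p = 0.975) with slide as a fixed block. Ndufa8 rose by 0.37 (SE 0.08, 1.29-fold, limma adjusted p = 0.00241) and was at 0.15 (adjusted p = 0.923) with slide as a fixed block and at 0.21 (adjusted p = 0.0755) on the processed signal.

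Cox7c (NM_007749), a small subunit of complex IV, measured 11.64, 11.40, 11.43 and 11.61 in SC mice and 11.71, 11.79 and 11.85 in CM mice. Its rise of 0.28 (SE 0.09, 1.22-fold, limma adjusted p = 0.0273) became -0.04 (adjusted p = 0.994) with slide as a fixed block, and the call was lost without the FC array of L54 (0.0879), L56 (0.123), O56 (0.0629) or O58 (0.0619). Ndufaf1 (NM_027175), an assembly factor, measured 11.91, 11.63, 11.87 and 11.78 in SC mice and 12.09, 12.09 and 12.04 in CM mice. The groups did not overlap, and its rise of 0.28 (SE 0.09, 1.21-fold, limma adjusted p = 0.0224) was of 0.32 (adjusted p = 0.778) with slide as a fixed block. It lost its call on the processed signal (0.21, adjusted p = 0.104) and without the FC array of L54 (0.101), L58 (0.0683), O54 (0.0526) or O56 (0.0581).

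**Figure D4:**
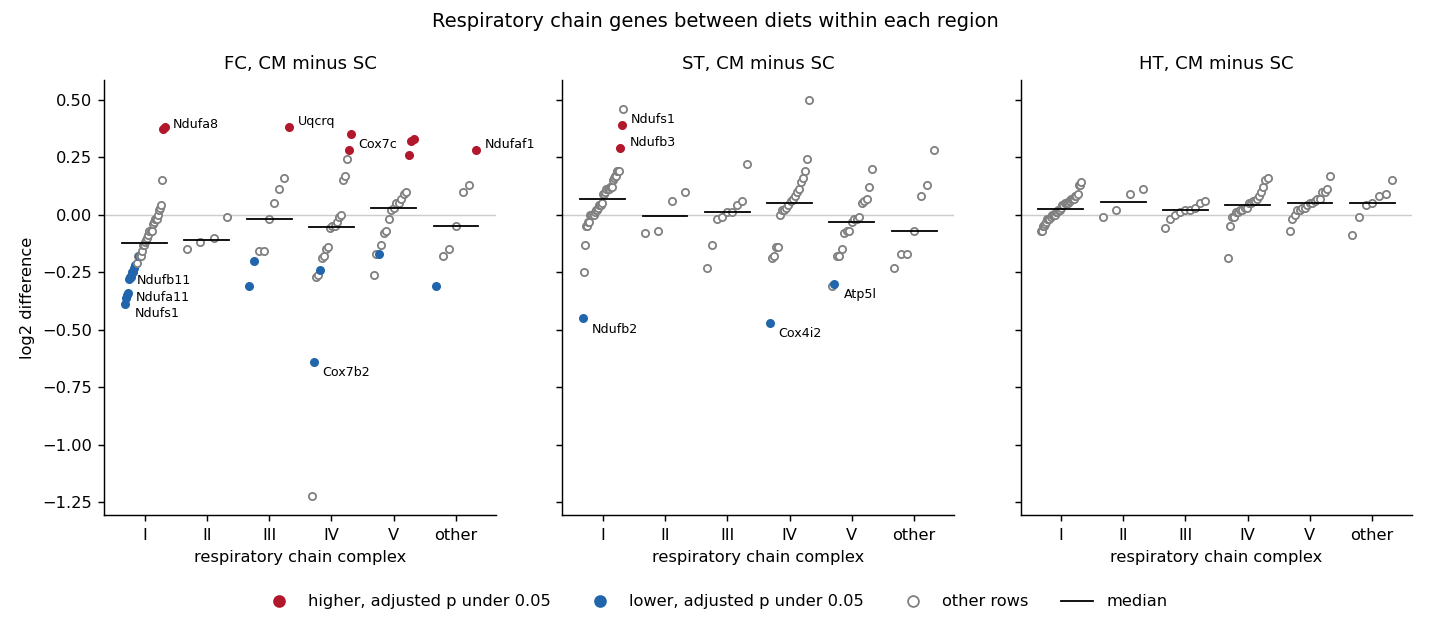
Log2 difference of CM minus SC mice for each respiratory chain row (y axis) in FC, ST and HT, by complex (x axis), with limma's calls at an adjusted p under 0.05 filled and lines at the medians. In FC 9 rows rose and 18 fell, in ST 2 rose and 3 fell and in HT 0 passed; with slide as a fixed block 0 passed in any of the 3, and on the processed signal the complex V median in FC turned from 0.03 to -0.10.

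In ST 2 members rose (2.11%) and 3 fell (3.16%) in CM mice, where 3.45% of all rows rose and 6.37% fell, so that the members changed no more often than the table. The median was 0.03 log2 for the members and for all rows. Ndufs1 measured 14.71, 13.92, 14.14 and 13.99 in ST of SC mice L52 to L58 and 14.56, 14.48, 14.51 and 14.60 in CM mice O52 to O58. The 4 CM arrays and the SC array of L52, which shared slide 1, were high, and the other SC arrays were lower. Ndufs1 rose by 0.39 (SE 0.10, 1.31-fold, limma adjusted p = 0.0155) over all arrays, but was at -0.04 with slide as a fixed block and at -0.18 within slide 1, where the sign turned.

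Ndufb3, an accessory subunit, rose by 0.29 (SE 0.08, adjusted p = 0.0252) in ST, and Ndufb2 (NM_026612), another, fell by 0.45 (SE 0.10, adjusted p = 0.00941). Cox4i2 fell by 0.47 (SE 0.13, adjusted p = 0.0277), and Atp5l (NM_013795), subunit g of ATP synthase, fell by 0.30 (SE 0.09, adjusted p = 0.0407). The groups overlapped for all 5 of these rows. Within slide 1, with 4 CM arrays and 1 SC array, the values were -0.04 for Ndufb3, 0.03 for Ndufb2, -0.05 for Cox4i2 and 0.07 for Atp5l, and the members' median was 0.01 with 51 positive. With slide as a fixed block 0 members and 0 of all rows passed limma's test, with 1 member and 1408 rows at an unadjusted p under 0.05. On the processed signal 3 members passed, and the share of rises among all calls went from 35.1% to 22.1%.

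Leaving out single ST arrays moved the count of 5 both ways. It was 3 without the array of CM mouse O52, 12 without that of SC mouse L54 and 9 without that of L52. Ndufs1 and Ndufb2 (NM_026612) lost their calls in none of the fits that left out 1 array. Leaving out the ST array of L54 also took the count from 11 to 19 in HT minus ST and from 8 to 12 in ST minus FC. Cox4i2 lost its call without the ST array of L56 (0.0518), L58 (0.0579), O52 (0.0571) or O58 (0.0503), and Ndufb3 without that of L58 (0.0543). Atp5l lost it without the FC array of L54 (0.0504) or the ST array of L58 (0.0582), O52 (0.0582), O54 (0.0905) or O56 (0.0917).

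In HT 0 members passed limma's test between diets, where 0.124% of all rows rose and 0.306% fell, and 2 members had an unadjusted p under 0.05. The differences ran from -0.19 to 0.17 log2 with a median of 0.03 against 0.01 over all rows, and 71 of 95 were positive. Leaving out 1 array at a time gave medians from -0.01 (without the HT array of SC mouse L56) to 0.07 (without that of L52). The smallest adjusted p, 0.248, belonged to Atp5b, the catalytic beta subunit of ATP synthase, at 0.17. On slide 2, which held 4 CM arrays and 1 SC array of HT, the members' median was 0.11 against -0.00 over all rows, with 83 positive and 12 negative. The lone SC array there was that of mouse L58, the lowest HT array in the plot of array medians, and with slide as a fixed block the median was 0.03. On the processed signal, the share of rises among the few calls over all rows went from 28.9% to 9.75%.

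The diet effects of the regions were then compared in the same model, which uses the groups described above again. Between FC and ST 11 members had a higher diet effect in FC and 18 a lower one by limma's test, 29 of 95, where 30.1% of all rows passed. Between FC and HT the counts were 2 and 10, 12 of 95, where 20% of all rows passed. Between ST and HT 0 members passed, as 0% of all rows did, and 11 members and 4658 rows had an unadjusted p under 0.05. Ndufs1 was lower in FC than in ST by -0.75 (limma adjusted p = 0.000279) and than in HT by -0.50 (adjusted p = 0.00422), Ndufa8 was higher by 0.61 (adjusted p = 0.000959) and 0.42 (adjusted p = 0.0103), and Uqcrq by 0.61 (adjusted p = 0.00138) and 0.35 (adjusted p = 0.0324). With slide as a fixed block 0 members and 0 of all rows passed in each of these 3 comparisons, and with slide as the random block 4 passed between FC and ST and 0 between FC and HT. On the processed signal the all-row medians of FC against ST and FC against HT moved by 0.11 and 0.10 log2, and the share of positive calls went from 53.0% to 69.3% and from 61.6% to 81.9%. The count between FC and HT was 5 without the HT array of L54 or of L56, 6 without the FC array of L54 or of O54, 7 without that of O56 and 19 without that of L52. Between ST and HT it was 4 without the ST array of L52, 2 without the FC array of L52 or the ST array of L54, and 1 without the ST array of L56.

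Of the 89 genes 6 had 2 rows (Ndufb11, Ndufb2, Uqcr11, Cox5b, Atp5k and Atp5l), and the rows of 2 of them went in opposite directions in a comparison where 1 was called. The Atp5l row NM_013795 measured 14.58, 14.29, 14.22 and 14.27 in FC of SC mice and 14.57, 14.62 and 14.65 in CM mice, and the row BC094407 measured 15.52, 15.81, 15.67 and 15.62 in SC mice and 15.41, 15.57 and 15.50 in CM mice. The first was high, and the second low, in CM mice and on the SC array from slide 2. The diet differences were 0.32 (limma adjusted p = 0.00603) and -0.17 (0.175) in FC and -0.30 (0.0407) and 0.20 (0.212) in ST. In HT minus FC the same rows were at 0.47 (adjusted p = 0.000321) and -0.03 (0.809). Cox5b, a matrix-side subunit of complex IV, gave 0.25 (adjusted p = 0.0306) from NM_009942 and -0.09 (0.407) from BC005564 in HT minus FC. The NM_009942 call was lost without the FC array of L54 (0.0717) or L56 (0.0639) or the HT array of L54 (0.0719) or L56 (0.118). The array annotation places the BC005564 probe on chromosome 15 while RefSeq has Cox5b on chromosome 1, and it places the NM_007507 probe of Atp5k on chromosome Y while RefSeq has the gene on chromosome 5.

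The base composition of the probes was set beside the calls, without a test between groups of rows. The share of G and C in a row's probes had a median of 43.3% over the members and over all rows. For the 9 members that rose in FC it was 36.1%, for the 18 that fell 45% and for the others 41.7%, whereas over all rows it was 45% for rises and for falls. In ST, where the signs of many members turned, it was 45% for the 2 rises and 36% for the 3 falls. Over the 95 members the difference in FC went with the share of G and C at r = -0.28 (Spearman's rho = -0.42) and that in ST at r = 0.37 (rho = 0.45), across rows that share arrays and are not independent. Over all 31395 rows r was 0.02 and -0.05. Between diets in HT, where 0 members passed limma's test and 2 had an unadjusted p under 0.05, r was -0.14 over the members and -0.26 over all rows. On chow the members that rose had 40% in HT minus FC, against 44.2% for the others (r = -0.21, rho = -0.31), 36.4% in ST minus FC, against 43.3% (r = -0.33, rho = -0.39), and 40% in HT minus ST, against 43.3%. There r (0.04) and rho (-0.11) differed in sign. Among the 4 largest rises and 4 largest falls in FC of called rows whose arrays did not overlap, the shares of the rows overlapped, with 43.3% for Uqcrq and 35% for Ndufaf1, which rose, and 41.7% for Ndufb11 and 35% for Cox7b2, which fell. The first 30 bases of 1 probe of each of the other 4 are shown with G and C in capitals.
Ndufa8: atCaCaGaCattaaCaaaaaaGttaattta
Cox7c: aaaGtttaaGaGatGatCtGaaaattGGat
Ndufa11: GGCCGaGCaaGCCCaGCtaGGtatGGCGat
Ndufs1: CCGtCCatatGCtGaGaCatCtaaCaGGGa
The whole 60-base probes held 28.3% G and C for Ndufa8 and 25% for this probe of Cox7c (36.1% over the 3 probes of its row), both of which rose, and 53.3% for Ndufa11 and 45% for Ndufs1, both of which fell. The part of probe composition in the diet and region differences was not tested.

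**Figure D5:**
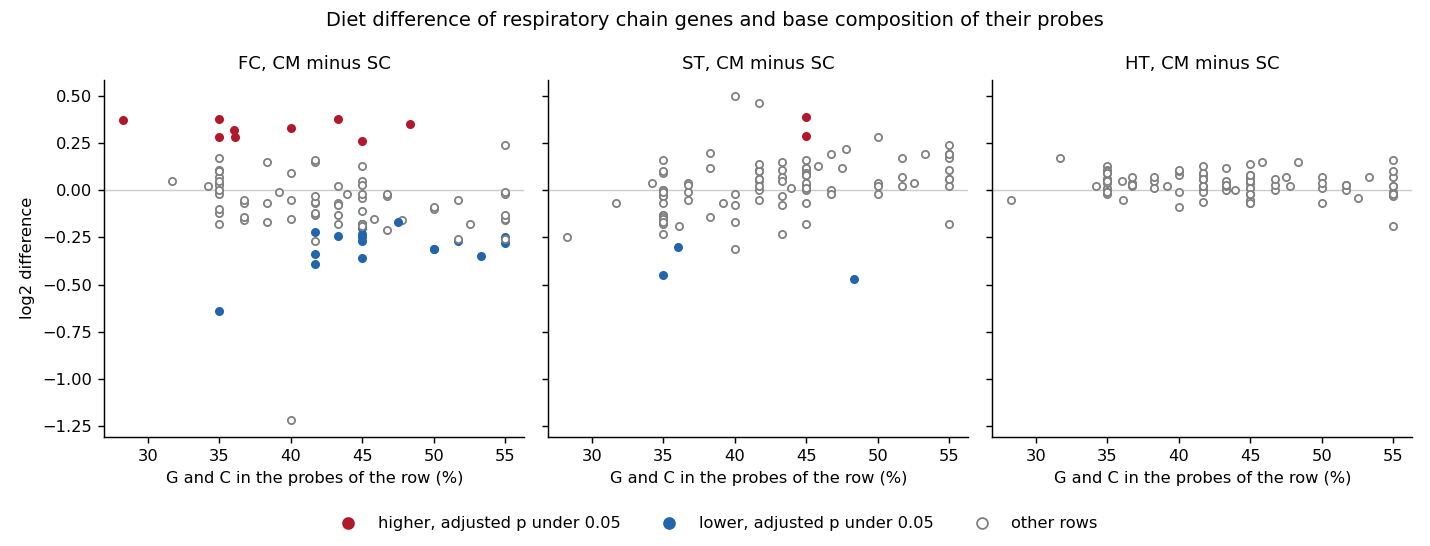
Log2 difference of CM minus SC mice for each respiratory chain row (y axis) against the percent of G and C in its probes (x axis), in FC, ST and HT, with limma's calls at an adjusted p under 0.05 filled. The 9 rises in FC have a median of 36.1% and the 18 falls one of 45%; with slide as a fixed block 0 of these calls remain.

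The promoters of the members were taken from RefSeq (GRCm38.p6) as the 250 bases before each transcription start, which gave 80 promoters of 74 of the 89 genes. Each was searched on both strands for short motifs of 4 factors known to act on nuclear genes of mitochondria. The NRF1 motif GCATGCGC was in 9 of the 80 (11.2%), against 2.26% of all 32851 promoters, and the GABP motif CCGGAAG in 13 (16.2%), against 6.91%. The YY1 motif AAGATGGC was in 2 (2.5% against 1.56%) and the ERR motif TCAAGGTCA in 1 (1.25% against 0.387%), and 22 promoters held any of the 4. Among protein-coding genes the shares were 2.93% for NRF1 and 8.98% for GABP. By complex, NRF1 was found in 3 of 34 promoters of complex I and 3 of 17 of complex V, and GABP in 3 and 4.

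Promoters of 4 members that rose in HT against FC or ST are shown as examples, 2 with a motif and 2 without any of the 4. Atp5c1 and Ndufa10, which also rose in HT, had none of the 4 either. Capitals mark the NRF1 motif in Ndufa8 (chr2:36049339-36049588, minus strand) and the GABP motif, read from the opposite strand, in Ndufb6 (chr4:40279422-40279671, minus strand). Cox6b2 (chr7:4753095-4753344, minus strand) and Cox7a1 (chr7:30183921-30184170, plus strand) are in lower case throughout.
Ndufa8: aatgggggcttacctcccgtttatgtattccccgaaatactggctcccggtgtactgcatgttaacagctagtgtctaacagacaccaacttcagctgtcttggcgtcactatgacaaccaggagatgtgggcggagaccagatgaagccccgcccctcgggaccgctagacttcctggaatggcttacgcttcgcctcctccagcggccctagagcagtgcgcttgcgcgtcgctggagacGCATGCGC
Ndufb6: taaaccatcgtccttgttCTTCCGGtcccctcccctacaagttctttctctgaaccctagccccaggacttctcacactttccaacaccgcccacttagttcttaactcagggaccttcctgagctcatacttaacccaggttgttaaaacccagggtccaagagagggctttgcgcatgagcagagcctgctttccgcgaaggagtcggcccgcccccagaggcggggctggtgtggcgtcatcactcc
Cox6b2: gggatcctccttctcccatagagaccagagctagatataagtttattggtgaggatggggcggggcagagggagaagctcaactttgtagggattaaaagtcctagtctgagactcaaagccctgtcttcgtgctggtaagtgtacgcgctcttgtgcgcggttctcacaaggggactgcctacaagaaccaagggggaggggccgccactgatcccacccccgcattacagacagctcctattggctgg
Cox7a1: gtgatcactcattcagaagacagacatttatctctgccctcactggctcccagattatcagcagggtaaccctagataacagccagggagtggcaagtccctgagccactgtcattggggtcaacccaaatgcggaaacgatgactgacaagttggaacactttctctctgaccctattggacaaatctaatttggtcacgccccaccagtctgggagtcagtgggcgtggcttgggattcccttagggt
In the Ndufa8 promoter the motif is the last 8 bases before the start. A match describes the sequence only, and a promoter without one says only that these letters are not in this window.

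Beside the lists that follow, 43.2% of all rows passed in HT minus FC, 21.5% in HT minus ST, 14.9% in ST minus FC, and 28.6%, 9.82% and 0.43% between diets in FC, ST and HT. Of 13 chain subunit genes of the mitochondrial genome 12 had a row, ATP6 having none, and in HT minus FC 0 passed limma's test, 0 at an unadjusted p under 0.05, with a median of -0.02. In HT minus ST 1 fell, ND3 (-0.25, SE 0.09, adjusted p = 0.047), and in ST minus FC 1 rose, again ND3 (0.30, adjusted p = 0.041). The median of HT minus ST was -0.16, with 11 of 12 rows negative and 4 at an unadjusted p under 0.05. In CM minus SC ND3 rose in FC (0.21, adjusted p = 0.0415), and in ST and HT 0 passed, with 1 and 0 rows at an unadjusted p under 0.05. Of the other chain genes, such as cytochrome c and the electron transfer flavoproteins, 8 of 9 had a row (Cyct had none). In HT minus FC 3 rose, led by Etfdh (0.30, adjusted p = 0.0202), and in FC of CM mice 2 fell, led by Etfa (-0.43, adjusted p = 0.00726), while 0 passed in the other 4 comparisons, where at most 1 had an unadjusted p under 0.05.

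Assembly factors outside the name rule had most calls in HT minus FC, as all rows did. Of 27 rows 10 rose and 3 fell there (48.1%, against 43.2% of all rows), with Tmem126b, a complex I assembly factor, at 0.61 (adjusted p = 0.00152) and Sco1, a copper chaperone of complex IV, at -0.43 (adjusted p = 0.0166). In HT minus ST 7 rose, again led by Tmem126b (0.51, adjusted p = 0.0169), and in ST minus FC 1 fell, Cox19 (-0.33, adjusted p = 0.0192). In FC of CM mice 5 fell, with Tmem126b at -0.58 (adjusted p = 0.00218), and 1 rose, the copper chaperone Cox17, whose row was well above background on 2 of the 4 FC arrays of SC mice, so that no size is given. In ST and HT 0 passed between diets, with 5 and 4 at an unadjusted p under 0.05.

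The tricarboxylic acid cycle, which feeds the chain, rose in 8 of 20 rows in HT minus FC (40%, against 22.8% of all rows) and in 3 in HT minus ST (15%, against 10.7%), both led by fumarase, Fh1 (0.64, adjusted p = 1.14e-05, and 0.50, adjusted p = 0.000475), with 0 falls in either. In ST minus FC 2 rose and 1 fell, with Suclg1 at 0.32 (adjusted p = 0.0221) and Dlat at -0.34 (adjusted p = 0.0473). In FC of CM mice 4 fell, led by Dlat (-0.34, adjusted p = 0.00698), in ST Dlst rose (0.41, adjusted p = 0.0143) and Ogdh fell (-0.25, adjusted p = 0.0116), and in HT 0 passed, with 3 at an unadjusted p under 0.05. Glycolysis was mixed: of 19 rows 3 rose and 4 fell in HT minus FC, with Hk1 (J05277) at 0.44 (adjusted p = 8.84e-05) and Pfkp at -0.86 (adjusted p = 1.06e-07), 5 rose and 2 fell in HT minus ST, with Aldoc at 0.41 (adjusted p = 0.00161), and 2 fell in ST minus FC, led by Pfkl (-0.65, adjusted p = 0.0237). In HT minus ST the 5 rises of glycolysis became 0 both on the processed signal and with quantile normalization within each region. In FC of CM mice 1 glycolysis row rose and 2 fell, the extremes being 2 rows of Hk1 (J05277 at 0.28 and NM_001146100 at -0.46), and in ST and HT 0 passed, 0 at an unadjusted p under 0.05.

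Among 13 mitochondrial carriers and uncoupling proteins 6 rose in HT minus FC and 2 in ST minus FC, both led by the aspartate-glutamate carrier Slc25a13 (0.89, adjusted p = 0.000355, and 1.02, adjusted p = 0.00307). In HT minus ST 2 rose, led by Vdac3 (0.43, adjusted p = 0.00083), and Slc25a14 fell (-0.24, adjusted p = 0.0202). In FC of CM mice 2 rose and 2 fell, with the phosphate carrier Slc25a3 at 0.28 (adjusted p = 0.0269) and Slc25a13 at -0.60 (adjusted p = 0.00693). Of 11 rows of mitochondrial antioxidant genes, 3 rose and 2 fell in HT minus FC and in ST minus FC, 1 rose and 2 fell in HT minus ST and in ST of CM mice, and 1 rose and 4 fell in FC of CM mice. Glrx2, a mitochondrial glutaredoxin, had the largest rises of that list, at 0.87 (adjusted p = 0.001) in HT minus FC, 0.77 (adjusted p = 0.0244) in ST minus FC and 1.05 (adjusted p = 0.00021) in FC of CM mice, and was at -0.80 (adjusted p = 0.0134) in ST of CM mice. For both lists 0 rows passed between diets in HT, 0 at an unadjusted p under 0.05.

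Nuclear genes listed as regulators of mitochondria did not move one way. Of 23 rows 5 rose and 6 fell in HT minus FC, with the nuclear receptor Esrrb at 0.85 (adjusted p = 0.0174) and Gabpb1, a subunit of GABP, at -0.72 (adjusted p = 0.00181), and in HT minus ST 4 fell, led by Polg (-0.51, adjusted p = 0.000565). In ST minus FC 2 rose and 1 fell, with the coactivator Ppargc1b at 0.93 (adjusted p = 0.00128) and Sirt3 at -0.37 (adjusted p = 0.0427). Between diets Ppargc1b rose in FC (0.47, adjusted p = 0.00609) and fell in ST (-0.66, adjusted p = 0.00597), where Sirt1 rose (0.47, adjusted p = 0.00633). In FC 2 rows of this list rose and 4 fell, the largest fall being that of Gabpb1 (-0.48, adjusted p = 0.0229), and in HT 0 passed, with 5 at an unadjusted p under 0.05.

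Cell type markers moved with the regions too, and in pieces of tissue fewer cells of a type and less RNA per cell cannot be told apart. Oligodendrocyte markers rose in 8 of 10 rows in HT minus FC (largest Mobp, 1.09, adjusted p = 0.000451), where 1 row of Mbp fell (-0.67), and in 8 of 10 in ST minus FC (largest Opalin, 1.37, adjusted p = 0.00327). Most of these rows were thus higher in HT and in ST than in FC, and in HT minus ST 0 rose and 2 fell. In FC of CM mice 5 rows fell (largest Mag, -0.92, adjusted p = 0.000778) and 1 rose (Mbp, 0.42, adjusted p = 0.0433). Of these 10 rows 0 passed in FC when slide was a fixed block. The part of oligodendrocytes in the chain results was not tested.

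Neuron markers, brightest for Syt1 in FC and for Eno2 in HT, rose in 3 and fell in 4 of 11 rows in HT minus FC, with Nefh at 1.29 (adjusted p = 0.000261) and Rbfox3 at -1.30 (adjusted p = 1.65e-08). Their sums were 349000, 328000, 360000 and 335000 in FC of SC mice, 276000, 319000, 299000 and 295000 in ST and 281000, 282000, 308000 and 262000 in HT, so that FC was highest. The part of neurons in the chain results was not tested. In CM mice the sums were 343000, 329000 and 323000 in FC, 261000, 250000, 270000 and 239000 in ST, below all SC arrays of ST, and 290000, 299000, 280000 and 288000 in HT. The CM arrays of ST shared slide 1 with the SC array of L52, which had the lowest sum of the SC arrays of ST (276000). Between diets 1 neuron row fell in each region: Nefl in FC (-0.43, adjusted p = 0.00823), Snap25 in ST (-0.49, adjusted p = 0.00895) and Rbfox3 in HT (-0.40, adjusted p = 0.0444). Parvalbumin interneurons, which are rich in mitochondria, were followed by a list of 7 rows whose brightest, Gad1 and Gad2, also mark other GABA neurons such as those of the striatum, so that its sums and counts are not given. Pvalb itself did not pass in any of the 6 comparisons, with 0.31 (adjusted p = 0.523) in HT minus FC and 0.16 (adjusted p = 0.746) in FC of CM mice, and Lhx6 did not either. Of the potassium channel genes, Kcnc2 rose in HT minus ST (1.19, adjusted p = 0.000277) and 1 of 2 rows of Kcnc1 in HT minus FC (0.98, adjusted p = 0.00039). Gad1 fell in HT minus ST (-0.73, adjusted p = 0.0342), and Gad2 rose in ST minus FC (1.03, adjusted p = 0.0152). In FC of CM mice the same row of Kcnc1 rose (0.51, adjusted p = 0.034), its other row fell (-0.27, adjusted p = 0.0465) and Gad2 fell (-0.60, adjusted p = 0.0391).

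Astrocyte markers, brightest for S100b, rose in 3 and fell in 2 of 10 rows in HT minus FC and in HT minus ST, with Gja1 at 0.89 (adjusted p = 5.8e-05) and 0.82 (adjusted p = 0.000494) and Slc1a2 at -1.01 (adjusted p = 1.38e-06) and -0.58 (adjusted p = 0.00158). They fell in 2 rows in ST minus FC and in 3 in FC of CM mice, where Gfap was at -1.09 (adjusted p = 0.0178). Their sums in SC mice were 59600, 76700, 70300 and 73800 in FC, 73700, 68900, 65700 and 55300 in ST and 81400, 70100, 73200 and 73100 in HT. In CM mice they were 65000, 65900 and 66900 in FC, 69400, 65900, 66600 and 77000 in ST and 77700, 74600, 78100 and 78300 in HT. Microglia markers fell in 5 of 9 rows in HT minus FC and in 7 in HT minus ST, with Cx3cr1 at -0.53 (adjusted p = 0.000109) and P2ry12 at -0.63 (adjusted p = 0.00207), and 1 rose in FC of CM mice. The part of these cell types in the chain results was not tested. Of 10 endothelial and mural rows, brightest for Flt1 in HT, 1 rose and 1 fell in HT minus FC and 1 rose in FC of CM mice (Pecam1 in both rises, 0.45 and 0.52), 0 of 4 blood rows passed in any of the 6 comparisons, where at most 1 had an unadjusted p under 0.05, and of 6 choroid plexus rows 1 rose in HT minus FC (Otx2, adjusted p = 0.000774, well above background on 3 of the 4 FC arrays). Choroid plexus markers, brightest for Ttr, summed to 332000 on the ST array of CM mouse O58 against at most 20500 on every other array, and the muscle isoform Cox8b was at 11.42 on that array and between 5.85 and 8.43 on the other 22.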

How the data were processed

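The values are log2 intensities, normexp background-corrected and quantile-normalized by the authors and deposited with 31395 rows. The scanner files hold raw and processed intensity, per the file headers. The deposited table was rebuilt from the raw median signals (normexp offset 0, quantile normalization, a filter at 1.1 times the 95th percentile of 308 negative controls on at least 4 arrays, means over spots with the same transcript identifier), and the largest difference was 5e-09. The array has 62976 spots, and the 134 member spots carry 125 probes.

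The model had 6 group means, mouse as a random block (correlation -0.0398) and gene-by-gene array weights, fitted with limma 3.58.1 and statmod 1.5.0 in R 4.3.3 with data.table (1.17.8). The weights ran from 0.22 (ST array of L58) to 2.74 (FC array of O56). Labels give the same mouse in each region. Over the residuals, pairs of arrays of the same mouse had a median correlation of 0.02 (22 pairs). Arrays with the same number in the other diet had one of -0.06 (11 pairs), and other pairs across regions one of 0.00 (154 pairs). By these medians the pairing has no visible trace. Pairs of the same mouse ran from -0.49 (ST and FC of L52) to 0.13, and other pairs across regions from -0.24 to 0.33.

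Members named include the 4 largest rises and 4 largest falls per comparison among called rows whose groups do not overlap. Isoform sets, Sdha to Sdhd and genes with rows of opposite sign are also named. Other members are given as examples, such as the calls between diets in ST and those with slide as a fixed block. Rows named from the other lists are mostly the largest called rise or fall of a comparison, and not all of these are named. The members and lists were chosen with earlier results of these data known. Alternatives covered blocking by slide, mouse or replicate number, array weights, scaling, filtering, gene names, single comparisons and the study's thresholds, and region differences within single slides were added after seeing the data. Promoters came from RefSeq GRCm38.p6.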

Additional observations from a re-analysis of the deposited data

Results flagged for a closer look

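Of 205 groups of 4 arrays of named members, 10 held a value that Dixon's ratio set apart, where chance alone sets apart about 1 group in 20. In ST of SC mice, Cox7c was at 11.61 on the array of L52 against 11.93 to 11.95 on the others, and on the array of L58 Cox5b (BC005564) was at 14.81 against 15.06 to 15.11, Ndufb6 at 13.18 against 13.38 and Atp5g3 at 15.63 against 16.02 to 16.09. In ST of CM mouse O58, Cox6b2 was at 9.62 against 8.60 to 8.69 and Atp5g3 at 16 against 15.81 to 15.82. In HT of SC mouse L52, Atp5l (NM_013795) was at 14.91 against 14.72 to 14.74. In FC of SC mice, Cox6b1 was at 13.44 on the array of L58 against 13.16 to 13.20, Cox6a1 at 18 on that of L56 against 18.06 to 18.07 and Ndufb2 (NM_026612) at 13.99 on that of L52 against 13.54 to 13.59.

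The diet effect of some named members differed between regions in limma's interaction test (adjusted p in brackets). In FC minus ST it was higher for Uqcrq at 0.61 (0.00138), Ndufa8 at 0.61 (0.000959), Cox7c at 0.47 (0.0153), Ndufaf1 at 0.51 (0.00688), Atp5l (NM_013795) at 0.61 (0.000884), Atp5c1 at 0.64 (0.00251), Cox4i2 at 0.83 (0.00189), Ndufb2 (NM_026612) at 0.83 (0.000174) and Atp5sl at 0.27 (0.0385). It was lower there for Ndufs1 at -0.75 (0.000279), Ndufa11 at -0.54 (0.00169), Ndufb11 (NM_019435) at -0.44 (0.00838), Atp5l (BC094407) at -0.37 (0.0478), Cox4i1 at -0.34 (0.0133) and Ndufb3 at -0.56 (0.000621). In FC minus HT it was higher for Uqcrq at 0.35 (0.0324) and Ndufa8 at 0.42 (0.0103), and lower for Ndufs1 at -0.50 (0.00422), Ndufa11 at -0.43 (0.00636), Ndufb11 (NM_019435) at -0.36 (0.0195) and Ndufb3 at -0.34 (0.0142). With slide as a fixed block 0 members passed in these comparisons.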

How the results depend on the processing

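The arrays of a group shared slides unevenly, no slide held FC of both diets, and with 3 or 4 mice per group the number of arrays limits precision. Slide and diet cannot be told apart in FC, and tissue pieces mix cell types. The cause of each change below was not tested.

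Counts are members called by limma. With slide as a fixed block they were 0 for diet in FC, 0 for diet in ST, 1 in ST minus FC, 10 in HT minus FC, and 0 for the diet effect in FC against ST and 0 against HT. In that block the log2 differences changed sign for Ndufs1 (0.1), Cox7c (-0.04) and Cox4i2 (-0.19) for diet in FC, for Atp5l (NM_013795, 0.02) and Ndufs1 (-0.04) for diet in ST and for Cox4i2 (-0.16) in HT minus FC. With slide as the random block the counts were 2 for diet in FC, 0 in ST, 3 in ST minus FC, and 4 and 0 for the diet effect in FC against ST and HT. Without the replicate block for mouse they were 18 in HT minus ST and 1 for the diet effect in ST against HT, with mouse as a fixed replicate block in SC mice alone 3 in ST minus FC, and the block by replicate number moved no count.

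Without array weights the counts were 3 for diet in FC, 0 in ST, 22 in HT minus ST, and 14 and 0 for the diet effect in FC against ST and HT. REML weights gave 1 for the diet effect in ST against HT. The processed signal at the 75th percentile gave 3 for diet in ST, 5 in ST minus FC and 4 in HT minus ST. An offset of 50 gave 8 for diet in ST, 22 in HT minus ST and 2 for the diet effect in ST against HT. Quantile normalization within regions gave 15 in ST minus FC. Without a filter the diet effect in FC against HT had 6, and with probes kept when well above background on 4 arrays that in ST against HT had 1. With 1 value per gene name diet in ST had 3. With only the arrays of the 2 groups compared the counts were 12 for diet in FC, 0 in ST, 0 in ST minus FC and 3 in HT minus ST. The study's thresholds on fold and adjusted p, with the stricter ones it set for FC and ST also used between regions, left 0 for diet in FC, 0 in ST, 0 in ST minus FC, 0 in HT minus FC and 0 in HT minus ST. Within single slides the sign changed for diet in ST for Atp5l (NM_013795, 0.07), Ndufs1 (-0.18), Ndufb2 (NM_026612, 0.03) and Ndufb3 (-0.04), and in HT minus FC for Uqcrq (-0.07). Leaving out 1 array at a time gave 14 to 32 for diet in FC, 3 to 12 in ST and 0 in HT, 3 to 12 in ST minus FC, 34 to 45 in HT minus FC, 7 to 19 in HT minus ST, and 23 to 33, 5 to 19 and 0 to 4 for the diet effect in FC against ST, FC against HT and ST against HT.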
